A study of Mus musculus with 8 samples.

Results

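The interleukin 1 family and its processing machinery were followed as 10 genes in injured mouse heart. The genes were chosen by name, with earlier results of these data known. All 10 were found by symbol and gene ID among the 16547 genes with values in every library. They are the ligands Il1a, Il1b, Il18 and Il33, the receptor antagonist Il1rn, the receptors Il1r1 and Il1rl1, and the inflammasome genes Nlrp3, Casp1 and Gsdmd. The series sequenced oligo-dT selected mRNA from heart tissue of mice that had undergone ischemia-reperfusion, a temporary block of blood flow followed by its return. Its title describes protein nanocage nanozymes, enzyme-like particles meant to remove superoxide within cells. Mice received the nanocage iFTn-M4, iFTn-R4 or iFTn-MR4 at 2.5 mg/kg protein, or PBS, a salt buffer, as 2 doses given every other day, and tissue was taken after 3 days. Each of the 4 groups has 2 libraries, and every group, PBS included, carries the same injury. No uninjured heart was among the samples analysed here, so a level in PBS hearts is a level in injured tissue without a nanocage. Strain, sex and age are not given in the labels, nor is whether a group's 2 libraries are from different mice. P-values therefore measure only the spread between these libraries, which may be technical.

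Interleukin 1 alpha and beta are inflammatory cytokines that signal through the receptor encoded by Il1r1, and the Il1rn product occupies that receptor without starting a signal. Interleukin 1 beta and interleukin 18 are made as inactive precursors that caspase-1 cuts, usually on an inflammasome, a protein platform that the sensor NLRP3 can assemble, and gasdermin D forms the membrane pores through which they leave the cell. Interleukin 33 is kept in the nucleus and acts, once released by damage, on the receptor ST2, the product of Il1rl1. In the heart after an infarct the family is known for early inflammation, recruitment of leukocytes and effects on scar formation. Cutting, pore opening and release happen to proteins, which mRNA levels do not measure.

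Libraries held 13618588 to 15729385 expected counts, with a count for 15525 to 15851 genes in each. Levels are in CPM, the expected count scaled by a library size that the TMM method adjusts, except where TPM, a unit that is also scaled by transcript length, is named. A gene rose or fell only where its Benjamini-Hochberg adjusted p from edgeR's quasi-likelihood test was under 0.05 among 13953 tested genes. Log2 fold changes are given ± SE, and means ± SD with n = 2 libraries. All 10 cardiomyocyte markers had counts in every library, and they summed to 58573 to 61153 CPM in iFTn-M4 libraries, 38367 to 38562 CPM in iFTn-R4 libraries, 66675 to 68036 CPM in iFTn-MR4 libraries and 50816 to 51589 CPM in PBS libraries. The PBS libraries were deposited in a separate table, and treatment and table cannot be told apart in any comparison with PBS. Across genes, the log2 fold change against PBS had a Spearman correlation with transcript length of 0.389, 0.496 and 0.353 in iFTn-M4, iFTn-R4 and iFTn-MR4 hearts, and that between nanocages one of 0.011 to 0.073. A fit with a length offset, which removes that trend, is named below wherever it ends the call of a named gene. The counts of the cell marker lists are given without it. Il18, Il1b and Casp1 have short transcripts, at the 7.45, 12.3 and 15.8 percentiles of length, while Il1r1 and Il1rl1 lie at the 79.6 and 79.4 percentiles.

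Il1b, Il1rn, Nlrp3, Casp1 and Gsdmd are the members that fell in both iFTn-M4 and iFTn-MR4 hearts. The 250 bases before 1 annotated start of each, Gsdmd aside, are shown for that reason, from the RefSeq annotation of GRCm38.p6, read 5′ to 3′ on the strand of the gene. Capitals mark matches to any of 6 motifs searched on both strands.
Il1b: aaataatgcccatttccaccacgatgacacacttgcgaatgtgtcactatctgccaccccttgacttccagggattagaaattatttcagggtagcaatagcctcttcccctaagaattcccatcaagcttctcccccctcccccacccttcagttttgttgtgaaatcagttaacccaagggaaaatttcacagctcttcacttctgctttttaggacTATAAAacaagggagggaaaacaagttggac
Il1rn: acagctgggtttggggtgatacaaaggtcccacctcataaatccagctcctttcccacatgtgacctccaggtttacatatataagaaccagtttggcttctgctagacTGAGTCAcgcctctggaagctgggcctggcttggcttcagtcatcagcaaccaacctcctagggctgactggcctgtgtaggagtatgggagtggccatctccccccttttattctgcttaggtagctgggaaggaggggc
Nlrp3: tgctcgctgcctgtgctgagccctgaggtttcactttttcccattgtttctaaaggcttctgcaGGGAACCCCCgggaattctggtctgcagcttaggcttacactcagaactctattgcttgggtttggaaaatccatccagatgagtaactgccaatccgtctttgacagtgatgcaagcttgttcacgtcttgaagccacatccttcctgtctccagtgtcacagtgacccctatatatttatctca
Casp1: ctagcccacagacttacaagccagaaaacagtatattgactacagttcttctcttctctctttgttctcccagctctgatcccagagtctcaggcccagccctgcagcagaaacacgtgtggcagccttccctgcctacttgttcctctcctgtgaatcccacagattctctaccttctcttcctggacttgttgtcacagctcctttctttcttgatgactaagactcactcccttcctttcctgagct
The Il1b window lies at chr2:129371140-129371389 on the minus strand, and its capitals are the TATA box TATAAA, 31 to 26 bases before the start. The Il1rn window, at chr2:24336610-24336859 on the plus strand, has the AP-1 site TGANTCA 141 to 135 bases before its start. The Nlrp3 window, at chr11:59541319-59541568 on the plus strand, has a match to the NF-kB consensus 186 to 177 bases before its start. The other annotated starts of these genes, 1 of Nlrp3 and 2 of Il1rn, have no match in their windows. The Casp1 window, at chr9:5298267-5298516 on the plus strand, has none of the 6. Of 32851 windows of this length, 12.4% hold TATAAA, 6.75% hold TGANTCA and 3.9% hold the NF-kB consensus. The other motifs searched were the interferon-stimulated element (by its usual consensus, 2.98% of windows), the gamma-activated site TTCNNNGAA (7.02%) and the C/EBP pair TTGCNNAA (9.56%). The 4 windows shown hold no overlapping matches, and a match says no more than that the letters are there. Among the other members, TATAAA lies 32 to 27 bases before the start of Il1a and 29 to 24 bases before the second start of Il33. A match to the NF-kB consensus lies 232 to 223 bases before the second start of Il1r1, a member that did not fall against PBS. TGANTCA lies 12 to 6 bases before the start of Il1a. Windows were found for 9 of the 10 members.

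Against PBS, transcripts for interleukin 1 beta, its receptor antagonist, the sensor NLRP3, caspase-1 and gasdermin D were lower in iFTn-M4 and iFTn-MR4 hearts, and the receptor Il1r1 was higher in iFTn-M4 and iFTn-R4 hearts. With the length offset the Gsdmd and Il1r1 calls in iFTn-M4 hearts were lost. So were the Il1a and Il18 calls in iFTn-MR4 hearts and every member call in iFTn-R4 hearts. In iFTn-M4 hearts 6 of 10 members passed the test, beside 41.2% of all tested genes. Of the members 1 rose and 5 fell, beside 19.8% and 21.4% of all tested genes. In iFTn-R4 hearts 3 of 10 passed, beside 29.4% of all tested genes, a share near that background. There 1 rose and 2 fell, beside 13.9% and 15.4% of all tested genes. In iFTn-MR4 hearts 7 of 10 passed, beside 50.9% of all tested genes. There 0 rose and 7 fell, beside 24.6% and 26.3% of all tested genes. The median log2 fold change of the 10 was -0.62, -0.28 and -1.03 in iFTn-M4, iFTn-R4 and iFTn-MR4 hearts, and the median of all tested genes was 0.00 in each. Il1a entered the test through the PBS libraries, in which it is highest, so its own call adds nothing to these counts, and 6, 2 and 6 of the other 9 members passed in iFTn-M4, iFTn-R4 and iFTn-MR4 hearts. The count of 3 in iFTn-R4 hearts was 0 without PBS replicate 1 and 1 without either iFTn-MR4 library. The 3 comparisons share the PBS libraries and are not independent of each other. In bulk tissue, fewer cells of a type and less RNA per cell cannot be told apart.

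**Figure D1:**
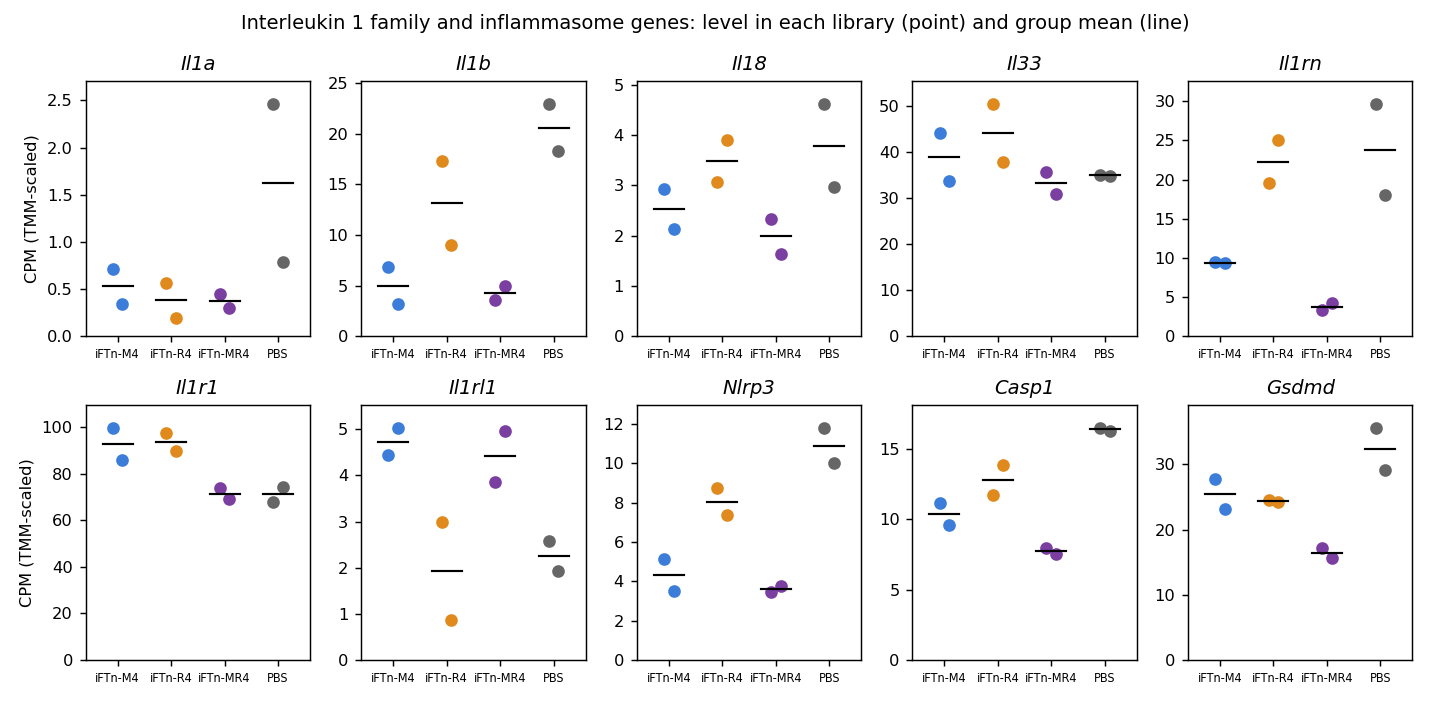
Level of each of the 10 genes in CPM (vertical axes, each from 0) in the 2 libraries of iFTn-M4, iFTn-R4, iFTn-MR4 and PBS hearts (points), with the group mean as a line. Il1rn lies at 3.33 and 4.23 CPM in iFTn-MR4 libraries, below every library of the other groups, and Il1r1 is higher in both iFTn-M4 and both iFTn-R4 libraries than in any PBS library.

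Il1b, the main secreted agonist of the family, lies on chromosome 2 at 129364569 to 129371164 (gene ID 16176). It had 6.87 and 3.17 CPM in iFTn-M4 libraries, 17.3 and 9.02 CPM in iFTn-R4 libraries, 3.55 and 4.97 CPM in iFTn-MR4 libraries, and 22.9 and 18.3 CPM in PBS libraries. Every nanocage library lay below both PBS libraries, and the iFTn-R4 libraries lay between PBS and the other nanocages. The fall was 4.11-fold in iFTn-M4 hearts (log2 -2.04 ± 0.36, edgeR adjusted p = 0.00194) and 4.82-fold in iFTn-MR4 hearts (log2 -2.27 ± 0.37, edgeR adjusted p = 0.000858). Without iFTn-M4 replicate 1 the log2 fold change in iFTn-M4 hearts was -2.71. In iFTn-R4 hearts Il1b averaged 13.1 ± 5.82 CPM, beside 20.6 ± 3.23 CPM in PBS hearts, and did not pass (log2 -0.64 ± 0.32, edgeR adjusted p = 0.16). Without iFTn-R4 replicate 1 it did (log2 -1.20, edgeR adjusted p = 0.0219, where the alternatives ranged from 0.0219 to 0.532). The noncoding gene Il1bos overlaps the span of Il1b. Shared exons were not examined and the use of strand in counting is not stated, so how far reads of the 2 mix is not known.

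Il1rn, the receptor antagonist, lies on chromosome 2 at 24336860 to 24351491 (gene ID 16181). It had 9.45 and 9.31 CPM in iFTn-M4 libraries, 19.5 and 25.1 CPM in iFTn-R4 libraries, 3.33 and 4.23 CPM in iFTn-MR4 libraries, and 29.6 and 18 CPM in PBS libraries. The iFTn-R4 libraries overlapped the range of PBS, while the iFTn-M4 and iFTn-MR4 libraries lay wholly below it. The antagonist thus fell together with the agonist, 2.54-fold in iFTn-M4 hearts (log2 -1.35 ± 0.23, edgeR adjusted p = 0.00162) and 6.3-fold in iFTn-MR4 hearts (log2 -2.66 ± 0.26, edgeR adjusted p = 5.46e-05). In iFTn-R4 hearts the log2 fold change was -0.10 ± 0.21 (edgeR adjusted p = 0.759).

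Il1r1, the signalling receptor, lies on chromosome 1 at 40222480 to 40316201 (gene ID 16177) and is the member with the highest CPM. It had 99.6 and 85.7 CPM in iFTn-M4 libraries, 97.4 and 89.8 CPM in iFTn-R4 libraries, 73.8 and 69 CPM in iFTn-MR4 libraries, and 68 and 74.2 CPM in PBS libraries. The iFTn-MR4 libraries overlapped PBS, and those of the other nanocages did not. Il1r1 rose 1.3-fold in iFTn-M4 hearts (log2 0.38 ± 0.09, edgeR adjusted p = 0.00948) and 1.32-fold in iFTn-R4 hearts (log2 0.40 ± 0.09, edgeR adjusted p = 0.0123), and had a log2 fold change of 0.01 ± 0.09 in iFTn-MR4 hearts. Neither rise passed with the length offset, at log2 0.22 and edgeR adjusted p = 0.0846 for iFTn-M4 and log2 0.22 and edgeR adjusted p = 0.128 for iFTn-R4 (alternatives 0.00443 to 0.0846 and 0.00326 to 0.128). They were also lost without PBS replicate 1 (0.0742 and 0.0888), and the iFTn-M4 one without iFTn-M4 replicate 1 (0.0801).

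Il1a, the alarmin form of interleukin 1, lies on chromosome 2 at 129299609 to 129310186 (gene ID 16175) and was close to the limit of detection. It had 10 and 5 expected counts in iFTn-M4 libraries, 9 and 3 in iFTn-R4 libraries, 6 and 4 in iFTn-MR4 libraries, and 39 and 12 in PBS libraries. The level in PBS replicate 1, at 2.46 CPM, was well above that in PBS replicate 2, at 0.793 CPM. It fell in iFTn-R4 hearts (log2 -2.06 ± 0.67, edgeR adjusted p = 0.043) and in iFTn-MR4 hearts (log2 -2.10 ± 0.69, edgeR adjusted p = 0.0293), and in iFTn-M4 hearts it did not pass (log2 -1.62 ± 0.64, edgeR adjusted p = 0.0683). These values rest on PBS replicate 1, without which they were -1.03 and -1.07 for iFTn-R4 and iFTn-MR4 and passed in neither (edgeR adjusted p = 0.371 and 0.301, the highest of the alternatives). The length offset ended both calls too, at 0.0904 and 0.0537, as did leaving out iFTn-R4 replicate 2 for iFTn-R4 (0.163) and either iFTn-MR4 library for iFTn-MR4 (0.0935 and 0.153). The iFTn-R4 call was lost, too, without any library of iFTn-M4 or iFTn-MR4 (0.058 to 0.0697), with values over the libraries left out of -3.00 to -1.03. Without PBS replicate 2 the iFTn-MR4 value was -2.69, and Il1a then passed in iFTn-M4 hearts as well. The overlapping noncoding gene Gm14023 could hold some of these reads.

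Nlrp3, the sensor, lies on chromosome 11 at 59541569 to 59566955 (gene ID 216799). It had 5.15 and 3.52 CPM in iFTn-M4 libraries, 8.75 and 7.36 CPM in iFTn-R4 libraries, 3.48 and 3.79 CPM in iFTn-MR4 libraries, and 11.8 and 10 CPM in PBS libraries. Its groups kept the order seen for Il1b, with PBS highest, iFTn-R4 next and no overlap between either of these and the other nanocages. It fell 2.52-fold in iFTn-M4 hearts (log2 -1.33 ± 0.21, edgeR adjusted p = 0.00104) and 3-fold in iFTn-MR4 hearts (log2 -1.58 ± 0.22, edgeR adjusted p = 0.000293). In iFTn-R4 hearts its log2 fold change was -0.43 ± 0.19 (edgeR adjusted p = 0.118).

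Casp1, the protease that cuts the interleukin 1 beta and interleukin 18 precursors, lies on chromosome 9 at 5298517 to 5307281 (gene ID 12362). It had 11.2 and 9.58 CPM in iFTn-M4 libraries, 11.7 and 13.9 CPM in iFTn-R4 libraries, 7.94 and 7.57 CPM in iFTn-MR4 libraries, and 16.5 and 16.3 CPM in PBS libraries. All 6 nanocage libraries lay below PBS, and the PBS libraries differed little. It fell 2.11-fold in iFTn-MR4 hearts (log2 -1.08 ± 0.14, edgeR adjusted p = 0.000269) and 1.57-fold in iFTn-M4 hearts (log2 -0.65 ± 0.14, edgeR adjusted p = 0.00483). In iFTn-R4 hearts the value was log2 -0.35 ± 0.14 (edgeR adjusted p = 0.0747), and it passed only without iFTn-R4 replicate 2 (0.0419).

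Gsdmd, the pore-forming protein that caspase-1 cleaves, lies on chromosome 15 at 75862144 to 75867408 (gene ID 69146). It had 27.8 and 23.1 CPM in iFTn-M4 libraries, 24.6 and 24.3 CPM in iFTn-R4 libraries, 17.2 and 15.7 CPM in iFTn-MR4 libraries, and 35.6 and 29.1 CPM in PBS libraries. No nanocage library reached the level of a PBS library, and the iFTn-MR4 libraries were lowest. It fell 1.97-fold in iFTn-MR4 hearts (log2 -0.98 ± 0.13, edgeR adjusted p = 0.000261). The smaller falls in iFTn-M4 (log2 -0.35 ± 0.12, edgeR adjusted p = 0.0474) and iFTn-R4 hearts (log2 -0.41 ± 0.12, edgeR adjusted p = 0.035) were just past the threshold. With the length offset they did not pass, at log2 -0.12 and edgeR adjusted p = 0.489 and at log2 -0.20 and edgeR adjusted p = 0.313, and without PBS replicate 1 the adjusted p was 0.314 and 0.233. Leaving out iFTn-M4 replicate 2, either iFTn-R4 library or either iFTn-MR4 library also ended 1 or both of these calls (alternatives 0.0193 to 0.489 for iFTn-M4 and 0.0148 to 0.446 for iFTn-R4).

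Il18, the other precursor that caspase-1 cuts, lies on chromosome 9 at 50554700 to 50581841 (gene ID 16173). It had 2.93 and 2.14 CPM in iFTn-M4 libraries, 3.06 and 3.91 CPM in iFTn-R4 libraries, 2.34 and 1.63 CPM in iFTn-MR4 libraries, and 4.61 and 2.97 CPM in PBS libraries. The iFTn-R4 libraries lay within the range of PBS, and the others lay below it. It fell 1.91-fold in iFTn-MR4 hearts (log2 -0.93 ± 0.32, edgeR adjusted p = 0.0358), a call lost with the length offset (log2 -0.60, edgeR adjusted p = 0.158), without PBS replicate 1 (log2 -0.58, 0.25) and without either iFTn-MR4 library (0.0581 and 0.207; alternatives 0.0226 to 0.25). The log2 fold changes in iFTn-M4 hearts (-0.58 ± 0.31) and iFTn-R4 hearts (-0.13 ± 0.30) did not pass. The protein-coding genes Bco2 and Tex12 overlap the span of Il18. Shared exons were not examined, so its counts are uncertain to that extent.

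Il33 and its receptor gene Il1rl1 did not follow the inflammasome genes. Il33, on chromosome 19 at 29925113 to 29960718 (gene ID 77125), had 44.2 and 33.8 CPM in iFTn-M4 libraries, 50.4 and 37.8 CPM in iFTn-R4 libraries, 35.8 and 30.9 CPM in iFTn-MR4 libraries, and 35 and 34.9 CPM in PBS libraries. Its log2 fold changes were 0.16 ± 0.16, 0.34 ± 0.16 and -0.07 ± 0.16 in iFTn-M4, iFTn-R4 and iFTn-MR4 hearts, and none passed (edgeR adjusted p = 0.45, 0.13 and 0.741). Without iFTn-R4 replicate 2 or under limma the value in iFTn-R4 hearts did pass (adjusted p over the alternatives 0.0287 to 0.63). Il1rl1, on chromosome 1 at 40404864 to 40465418 (gene ID 17082), had 4.44 and 5.03 CPM in iFTn-M4 libraries, 3 and 0.862 CPM in iFTn-R4 libraries, 3.86 and 4.97 CPM in iFTn-MR4 libraries, and 2.59 and 1.92 CPM in PBS libraries. Both iFTn-M4 and both iFTn-MR4 libraries lay above PBS, but the values of log2 1.07 ± 0.42 and 0.97 ± 0.42 did not pass (edgeR adjusted p = 0.0661 and 0.0823). Leaving out either iFTn-R4 library, which differ from each other more than 3-fold, brought both under the threshold. In iFTn-R4 hearts the log2 fold change of Il1rl1 was -0.21 ± 0.46, and without iFTn-R4 replicate 1 it was -1.39 (edgeR adjusted p = 0.0311; alternatives 0.0311 to 0.981). Il1rl1 also makes a secreted form that binds interleukin 33, which a value per gene does not separate from the membrane receptor. The noncoding gene Gm41832 overlaps the span of Il33.

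**Figure D2:**
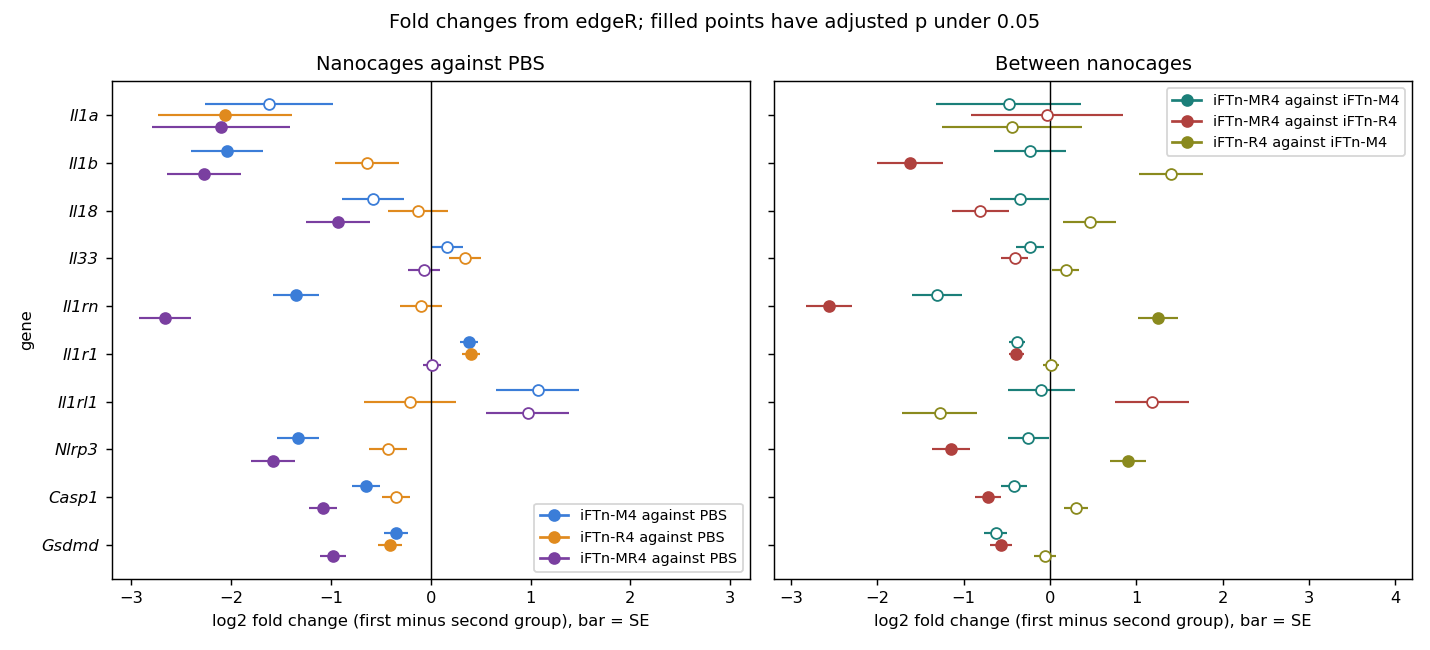
Log2 fold change with its SE from edgeR (horizontal axes) of each of the 10 genes, in nanocage hearts against PBS (left) and between nanocages (right); filled points have an adjusted p under 0.05. Il1rn reaches -2.66 in iFTn-MR4 against PBS and -2.56 in iFTn-MR4 against iFTn-R4, while Il33 stays between -0.41 and 0.34 throughout.

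Between nanocages, the members separated iFTn-MR4 from iFTn-R4 hearts and, less widely, iFTn-R4 from iFTn-M4 hearts. In iFTn-MR4 against iFTn-R4 hearts 6 of 10 members passed, beside 27.2% of all tested genes. Of these 0 rose and 6 fell, beside 12.6% and 14.6% of all tested genes. Il1rn fell 5.89-fold (log2 -2.56 ± 0.27, edgeR adjusted p = 0.000387), Il1b 3.08-fold (log2 -1.62 ± 0.38, edgeR adjusted p = 0.0127) and Nlrp3 2.22-fold (log2 -1.15 ± 0.22, edgeR adjusted p = 0.00527). Casp1 (log2 -0.72 ± 0.15, edgeR adjusted p = 0.00666), Gsdmd (log2 -0.57 ± 0.13, edgeR adjusted p = 0.0117) and Il1r1 (log2 -0.39 ± 0.09, edgeR adjusted p = 0.0136) fell less. Il1rl1 was the member with a positive value, log2 1.18 ± 0.43 (edgeR adjusted p = 0.0697), and it passed only without iFTn-R4 replicate 1 (log2 2.35, edgeR adjusted p = 0.00321; alternatives 0.00321 to 0.279). Il18 (-0.81 ± 0.33) and Il33 (-0.41 ± 0.16) did not pass, and Il33 did without iFTn-R4 replicate 2. The calls for Il1rn and Nlrp3 were kept without any library. Without iFTn-MR4 replicate 2 those for Il1b (0.055), Il1r1 (0.0923), Casp1 (0.0558) and Gsdmd (0.0942) were lost, without iFTn-MR4 replicate 1 those for Il1b (0.102) and Gsdmd (0.0546), and without iFTn-R4 replicate 1 those for Il1b (log2 -1.08, 0.0652) and Il1r1 (0.0543), all edgeR adjusted p. Without iFTn-MR4 replicate 2, 2 of 10 members passed.

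In iFTn-R4 against iFTn-M4 hearts 2 of 10 members passed, beside 5.93% of all tested genes. Both rose, beside 3.43% of all tested genes that rose and 2.5% that fell. The background itself moved with single libraries, with 827 genes called in all, 60 without iFTn-M4 replicate 2 and 1379 without iFTn-R4 replicate 2. Il1rn rose 2.38-fold (log2 1.25 ± 0.23, edgeR adjusted p = 0.016), with iFTn-R4 libraries at 19.5 and 25.1 CPM and iFTn-M4 libraries at 9.45 and 9.31 CPM. Nlrp3 rose by log2 0.90 ± 0.21 (edgeR adjusted p = 0.0399). Il1b had a log2 fold change of 1.40 ± 0.37 (edgeR adjusted p = 0.0566) and did not pass, and it did without iFTn-R4 replicate 2 (log2 1.78, edgeR adjusted p = 0.0115), without the filter on low counts (0.0483) and under DESeq2 (0.00179; alternatives 0.00179 to 0.312). The Il1rn call was lost without either iFTn-M4 library (edgeR adjusted p = 0.0956 and 0.135), and the Nlrp3 call without iFTn-M4 replicate 2 (log2 0.64, 0.255), iFTn-R4 replicate 1 (0.115) or any library of iFTn-MR4 or PBS (0.0569 to 0.0704). Il1rl1 had a log2 fold change of -1.28 ± 0.43 (edgeR adjusted p = 0.113) and passed without iFTn-R4 replicate 1 (log2 -2.45, edgeR adjusted p = 0.00611; alternatives 0.00611 to 0.376). Without iFTn-M4 replicate 1 the Il1b value was 2.06, and without iFTn-M4 replicate 2 the count of members was 0.

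In iFTn-MR4 against iFTn-M4 hearts 0 of 10 members passed in edgeR, beside 0.366% of all tested genes, of which 0.0215% rose and 0.344% fell. With an unadjusted p under 0.05 there were 4, Il1rn, Il1r1, Casp1 and Gsdmd, beside 18% of all tested genes (17.9% with libraries that do not overlap as well), and DESeq2 called 2, with 353 genes in all. The libraries of the 4 did not overlap and lay lower in iFTn-MR4 hearts, with log2 fold changes of -1.31 ± 0.29 for Il1rn (edgeR adjusted p = 0.0841), -0.38 ± 0.09 for Il1r1 (0.107), -0.42 ± 0.15 for Casp1 (0.193) and -0.63 ± 0.13 for Gsdmd (0.0795). Without either iFTn-R4 library, which lends its spread to the fit, Il1rn, Il1r1 and Gsdmd passed. Il1b (-0.23 ± 0.42) and Nlrp3 (-0.25 ± 0.24) overlapped between these groups.

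**Figure D3:**
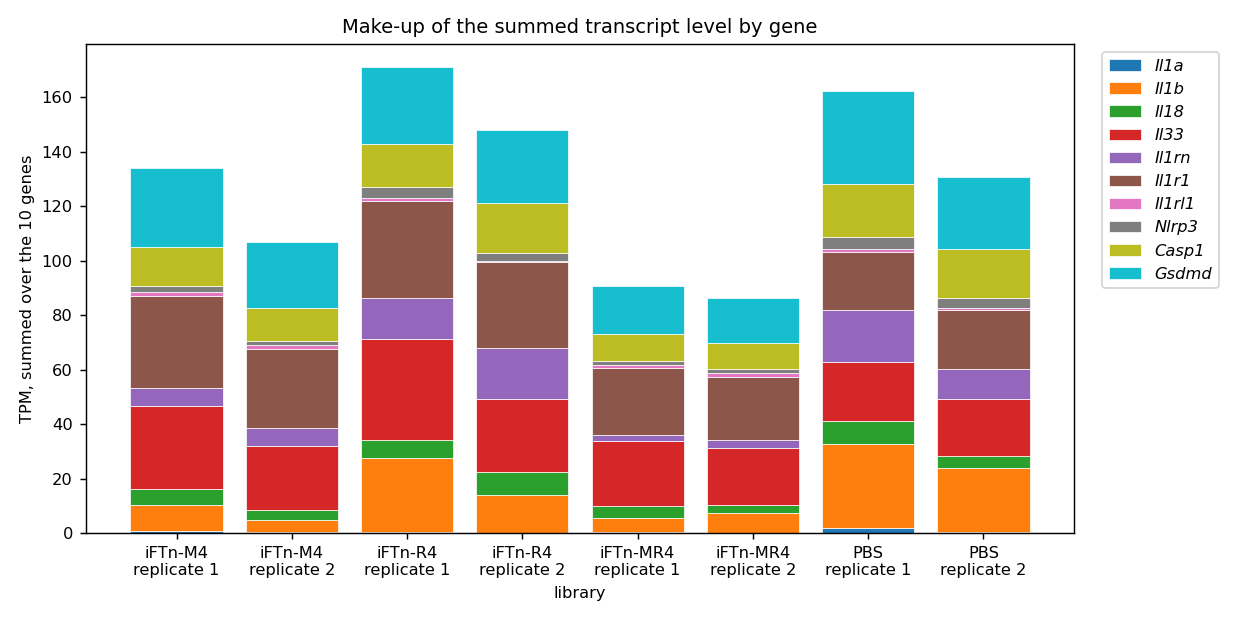
Summed TPM of the 10 genes in each library (vertical axis), divided by gene. Il1b takes 17.8% and 18.9% of the sum in PBS libraries, and Il1r1, with 20.8% to 27.1%, is the largest part in each of the 6 nanocage libraries apart from iFTn-R4 replicate 1.

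Per transcript length, the order of the members was set in the nanocage groups by Il1r1 and in PBS by Gsdmd. In iFTn-M4 hearts Il1r1 averaged 31.4 TPM, Il33 26.8 TPM and Gsdmd 26.6 TPM, with overlapping libraries. In iFTn-R4 hearts the same genes averaged 33.6, 32.1 and 27.3 TPM, also with overlap, followed by Il1b at 20.5 TPM. In iFTn-MR4 hearts Il1r1 averaged 23.7 TPM and Il33 22.3 TPM, with overlap, and Gsdmd 17 TPM. In PBS hearts Gsdmd averaged 30.3 TPM and Il1b 26.9 TPM, with overlap, ahead of Il1r1 at 21.5 TPM and Il33 at 21.2 TPM. The lowest members were Il1a, at 0.34 to 1.34 TPM over the groups, and Il1rl1, at 0.7 to 1.59 TPM.

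The make-up of the summed level moved with these shifts. The members summed to 134 and 107 TPM in iFTn-M4 libraries, 171 and 148 TPM in iFTn-R4 libraries, 90.7 and 86.4 TPM in iFTn-MR4 libraries, and 162 and 131 TPM in PBS libraries. Il1b took 7.37% and 4.25% of the sum in iFTn-M4 libraries, 15.9% and 9.31% in iFTn-R4 libraries, 5.62% and 8.29% in iFTn-MR4 libraries, and 18.9% and 17.8% in PBS libraries. Il1r1 took 25.2% and 27.1% in iFTn-M4 libraries, 20.8% and 21.4% in iFTn-R4 libraries, 27% and 26.5% in iFTn-MR4 libraries, and 13.1% and 16.7% in PBS libraries. For both genes every nanocage library lay on the same side of both PBS libraries. A share also depends on the other members, and Il1r1 itself had a log2 fold change of 0.01 ± 0.09 in iFTn-MR4 hearts against PBS. Il1r1 has a long and Il1b a short transcript, and fold changes against PBS rose with length. The part of length in these shares was not tested.

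Ratios within a library set the receptor, its ligands and its antagonist side by side, as descriptions without a test, since 2 against 2 libraries cannot reach a small exact p. Il1r1 over Il1rn was 5 and 4.41 in iFTn-M4 libraries, 2.39 and 1.71 in iFTn-R4 libraries, 10.7 and 7.7 in iFTn-MR4 libraries, and 1.11 and 1.97 in PBS libraries, in TPM. The iFTn-MR4 libraries held the most receptor transcript for each antagonist transcript and the PBS libraries overlapped those of iFTn-R4. Il1rn over the sum of Il1a and Il1b was 0.641 and 1.36 in iFTn-M4 libraries, 0.535 and 1.33 in iFTn-R4 libraries, 0.417 and 0.4 in iFTn-MR4 libraries, and 0.586 and 0.462 in PBS libraries. The antagonist to agonist ratio in PBS overlapped that in iFTn-R4 hearts and lay between the ratios of the other nanocages. Il33 over Il1rl1 spread from 12.5 to 96.3 over the 8 libraries, highest in iFTn-R4 replicate 2, where Il1rl1 was lowest.

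Beyond the members, the decoy receptor Il1r2 and the binding protein Il18bp were lower in nanocage hearts, while the inhibitory receptor Sigirr was not. The further ligands Il36a, Il36b, Il36g, Il36rn and Il1f10 had no values in all libraries. Of 7 tested receptors and decoys, 1 rose and 2 fell in iFTn-M4 hearts (median log2 fold change -0.03), 2 fell in iFTn-R4 hearts (-0.10), and 1 rose and 3 fell in iFTn-MR4 hearts (-0.86). The shares that passed were near the 41.2%, 29.4% and 50.9% of all tested genes. Il1r2, a decoy receptor that binds interleukin 1 without signalling, had 2.15 and 1.24 CPM in iFTn-M4 libraries, 7.32 and 7.1 CPM in iFTn-R4 libraries, 0.605 and 1.19 CPM in iFTn-MR4 libraries, and 12.6 and 11.5 CPM in PBS libraries. No groups overlapped, and iFTn-M4 and iFTn-MR4 lay closest to each other. It fell in iFTn-M4 hearts (log2 -2.83 ± 0.27) and in iFTn-MR4 hearts (log2 -3.73 ± 0.30; edgeR adjusted p = 7.83e-05 and 1.89e-05). Its fall in iFTn-R4 hearts (-0.74 ± 0.22, edgeR adjusted p = 0.0322) was lost with the length offset and without any 1 library of iFTn-R4 or PBS (alternatives 0.0264 to 0.177). The count of receptors and decoys was 1 in iFTn-R4 hearts without any of those libraries, and 2 in iFTn-MR4 hearts without iFTn-MR4 replicate 2 or PBS replicate 1.

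Il18bp, a secreted protein that binds interleukin 18, had 12 and 12.3 CPM in iFTn-M4 libraries, 19.4 and 19.6 CPM in iFTn-R4 libraries, 11.8 and 11.5 CPM in iFTn-MR4 libraries, and 46.6 and 69.3 CPM in PBS libraries. Every nanocage library lay far below PBS. It fell by log2 values of -2.25 ± 0.17, -1.57 ± 0.16 and -2.31 ± 0.17 in iFTn-M4, iFTn-R4 and iFTn-MR4 hearts (edgeR adjusted p = 2.82e-05, 0.000536 and 1.33e-05), calls that all alternatives kept. Sigirr, a receptor that dampens interleukin 1 signalling, rose by 0.43 ± 0.14 in iFTn-M4 and 0.47 ± 0.14 in iFTn-MR4 hearts, at 10.5 ± 0.0187 and 10.8 ± 0.868 CPM beside 7.82 ± 0.34 CPM in PBS hearts. The iFTn-M4 call was lost without either library of iFTn-M4 or of PBS, and the iFTn-MR4 call without iFTn-MR4 replicate 2 or PBS replicate 1 (edgeR adjusted p up to 0.148 and 0.106).

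**Figure D4:**
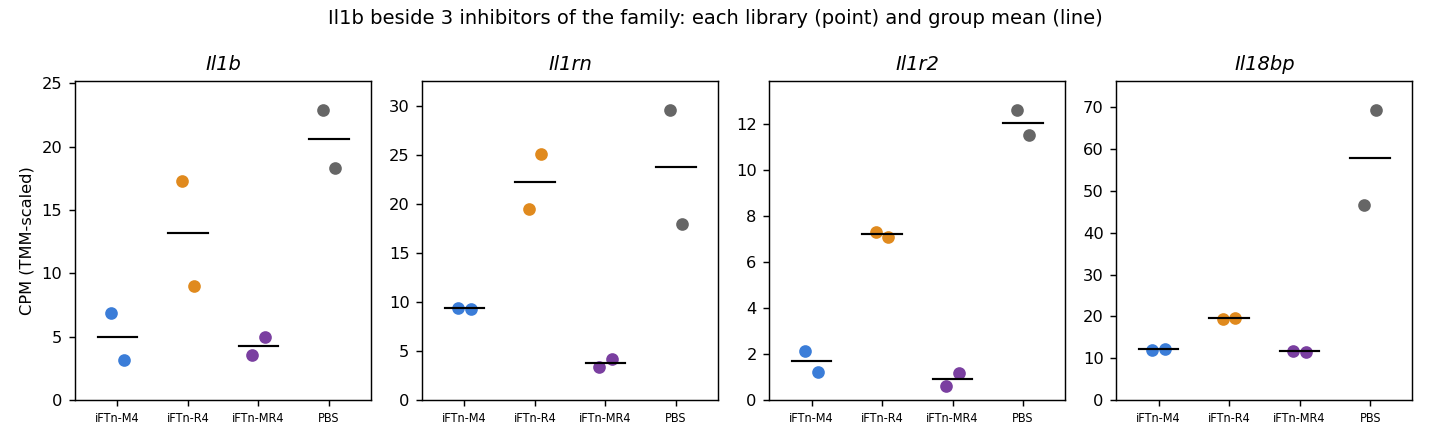
Il1b beside the antagonist Il1rn, the decoy receptor Il1r2 and the binding protein Il18bp, in CPM (vertical axes, each from 0), with 2 libraries as points and the mean as a line for iFTn-M4, iFTn-R4, iFTn-MR4 and PBS. Il18bp lies at 11.5 to 19.6 CPM in the nanocage libraries and at 46.6 and 69.3 CPM in PBS libraries.

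Of 17 tested inflammasome sensors, adaptors and partners, 3 fell in iFTn-M4 hearts, 1 rose and 1 fell in iFTn-R4 hearts, and 1 rose and 8 fell in iFTn-MR4 hearts (median log2 fold changes 0.06, -0.09 and -0.46). Of all tested genes 21.4%, 15.4% and 26.3% fell in these groups, so the counts in iFTn-M4 and iFTn-R4 hearts are at or under the background. Mefv, which encodes the sensor pyrin, averaged 5.74 ± 1.19 CPM in iFTn-M4 hearts, 8.67 ± 0.912 CPM in iFTn-R4 hearts, 3.34 ± 0.413 CPM in iFTn-MR4 hearts and 10.9 ± 0.3 CPM in PBS hearts. It fell in iFTn-M4 (log2 -0.92 ± 0.18) and in iFTn-MR4 hearts (log2 -1.70 ± 0.20; edgeR adjusted p = 0.00363 and 0.000131). Pycard, the adaptor ASC that joins sensors to caspase-1, fell by log2 values of -0.48 ± 0.12, -0.59 ± 0.12 and -0.67 ± 0.13 in iFTn-M4, iFTn-R4 and iFTn-MR4 hearts. The Pycard call in iFTn-M4 was lost with the length offset, without either library of iFTn-M4 and without PBS replicate 1 (alternatives up to 0.102), and that in iFTn-R4 without PBS replicate 1 (up to 0.0787). Aim2, a sensor of cytosolic DNA, fell in iFTn-MR4 hearts (log2 -0.68 ± 0.14). Naip2 fell there (log2 -0.53 ± 0.14), a call lost without iFTn-MR4 replicate 1, and some of its reads are shared with near-identical copies. The count in iFTn-MR4 hearts dropped to 4 of 17 without iFTn-MR4 replicate 2 and to 5 of 17 without PBS replicate 1, and that in iFTn-M4 hearts to 1 of 17 without iFTn-M4 replicate 2. In iFTn-R4 hearts it was 0 without PBS replicate 1, 1 without iFTn-R4 replicate 2 or either iFTn-MR4 library, and 4 without iFTn-R4 replicate 1, and in iFTn-M4 hearts 5 without iFTn-R4 replicate 2.

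Of 9 tested caspases, gasdermins and genes that limit or repair pores, 6 fell in iFTn-M4 hearts, 2 in iFTn-R4 hearts and 7 in iFTn-MR4 hearts, and 0 rose (medians -0.50, -0.08 and -0.72), beside 21.4%, 15.4% and 26.3% of all tested genes that fell. Casp4, the caspase that senses cytosolic lipopolysaccharide and also cuts gasdermin D, averaged 8.19 ± 0.763 CPM in iFTn-M4 hearts, 13.9 ± 0.468 CPM in iFTn-R4 hearts, 7.49 ± 0.307 CPM in iFTn-MR4 hearts and 16.4 ± 0.336 CPM in PBS hearts. It fell in iFTn-M4 hearts (edgeR adjusted p = 0.000363) and in iFTn-MR4 hearts (log2 -1.12 ± 0.13, edgeR adjusted p = 0.000123). Serpinb1a, an inhibitor of neutrophil proteases and inflammatory caspases, fell by log2 values of -0.94 ± 0.13 and -1.23 ± 0.13 in the same groups. Chmp4b, of the membrane repair machinery, fell by log2 values of -0.53 ± 0.08 and -0.71 ± 0.08 there. It fell in iFTn-R4 hearts as well (log2 -0.49 ± 0.08), a call lost with the length offset. Casp8 fell in iFTn-MR4 hearts (log2 -0.77 ± 0.10) and in iFTn-M4 hearts (log2 -0.35 ± 0.10). Its iFTn-M4 call was lost with the length offset and without iFTn-M4 replicate 2 or PBS replicate 1. With the length offset 0 of 9 passed in iFTn-R4 hearts.

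Of 18 tested receptor signalling genes, 4 rose and 2 fell in iFTn-M4 hearts, 2 rose and 2 fell in iFTn-R4 hearts, and 6 rose and 4 fell in iFTn-MR4 hearts (medians 0.05, 0.06 and 0.08). These shares are near or under the 41.2%, 29.4% and 50.9% of all tested genes that passed. Myd88, the adaptor for both the interleukin 1 receptor and ST2, had 40.5 and 36.4 CPM in iFTn-M4 libraries, 54.3 and 50.7 CPM in iFTn-R4 libraries, 33.4 and 31.4 CPM in iFTn-MR4 libraries, and 71.9 and 70.1 CPM in PBS libraries. No groups overlapped, and Myd88 fell by log2 values of -0.89 ± 0.08, -0.44 ± 0.08 and -1.13 ± 0.08 in iFTn-M4, iFTn-R4 and iFTn-MR4 hearts (edgeR adjusted p = 7.54e-05, 0.00476 and 1.3e-05). Peli2, a ubiquitin ligase of the pathway, rose by 0.73 ± 0.15, 0.68 ± 0.15 and 0.89 ± 0.15 in the same order. Irak4, the first kinase after Myd88, fell in iFTn-MR4 hearts (log2 -0.58 ± 0.11), as did Ube2n, a ubiquitin-conjugating enzyme (log2 -0.41 ± 0.08). Ube2n fell in iFTn-M4 (log2 -0.30) and iFTn-R4 hearts (log2 -0.27) as well. Both of these calls were lost with the length offset and without PBS replicate 2. With the length offset 2, 0 and 5 of 18 passed in iFTn-M4, iFTn-R4 and iFTn-MR4 hearts, the Myd88 and Peli2 calls in iFTn-R4 and the Ube2n call in iFTn-MR4 were lost. The Peli2 call in iFTn-R4 was lost, too, without iFTn-R4 replicate 2 or PBS replicate 2, and without either of these libraries 1 of 18 passed. Without iFTn-M4 replicate 2 the count in iFTn-M4 hearts was 2, without iFTn-M4 replicate 1 or either PBS library it was 3, and without iFTn-MR4 replicate 2 that in iFTn-MR4 hearts was 5.

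Genes known to be switched on by interleukin 1 were mostly lower in iFTn-M4 and iFTn-MR4 hearts. Of 18 tested, 14 fell in iFTn-M4 hearts, 2 in iFTn-R4 hearts and 16 in iFTn-MR4 hearts, and 0 rose (medians -1.21, -0.36 and -1.62, beside 0.00 over all tested genes). Of all tested genes 21.4%, 15.4% and 26.3% fell, so the count in iFTn-R4 hearts is under the background. This list, like the others, was chosen with earlier results of these data known. Its counts beside the background are therefore descriptions and no independent evidence. Ccl2, a chemokine that draws monocytes, had 27.6 and 20.3 CPM in iFTn-M4 libraries, 58.5 and 75.6 CPM in iFTn-R4 libraries, 9.83 and 13.2 CPM in iFTn-MR4 libraries, and 81.2 and 125 CPM in PBS libraries. The libraries of iFTn-M4 and iFTn-MR4 lay below those of the other groups, and it fell by log2 values of -2.10 ± 0.23 in iFTn-M4 and -3.16 ± 0.25 in iFTn-MR4 hearts (edgeR adjusted p = 0.000156 and 1.72e-05). Ccl7, a related chemokine, fell by log2 values of -2.27 ± 0.27 and -3.36 ± 0.30 in these groups. Ptgs2, the inducible prostaglandin synthase, fell by -1.57 ± 0.23 and -2.45 ± 0.25, and Lcn2, an iron-binding protein of innate defence, by -2.04 ± 0.31 and -2.48 ± 0.33. In iFTn-R4 hearts Ptgs2 fell (log2 -0.98 ± 0.22), a call lost without PBS replicate 2, and Ccl2 and Ccl7 did not pass at -0.62 ± 0.21 and -0.68 ± 0.24 (edgeR adjusted p = 0.0513 and 0.0625). Other cytokine and receptor pathways act on these genes too. With the length offset 12, 1 and 13 of 18 fell in iFTn-M4, iFTn-R4 and iFTn-MR4 hearts, and in iFTn-M4 hearts 5 fell without iFTn-M4 replicate 2 and 9 without PBS replicate 2. In iFTn-R4 hearts 4 fell without iFTn-R4 replicate 2 or PBS replicate 1, and 1 without PBS replicate 2. Between nanocages 10 of 18 fell in iFTn-MR4 against iFTn-R4 hearts, 5 without iFTn-MR4 replicate 1 and 6 without iFTn-MR4 replicate 2, and 5 rose in iFTn-R4 against iFTn-M4 hearts, 0 without iFTn-M4 replicate 2.

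**Figure D5:**
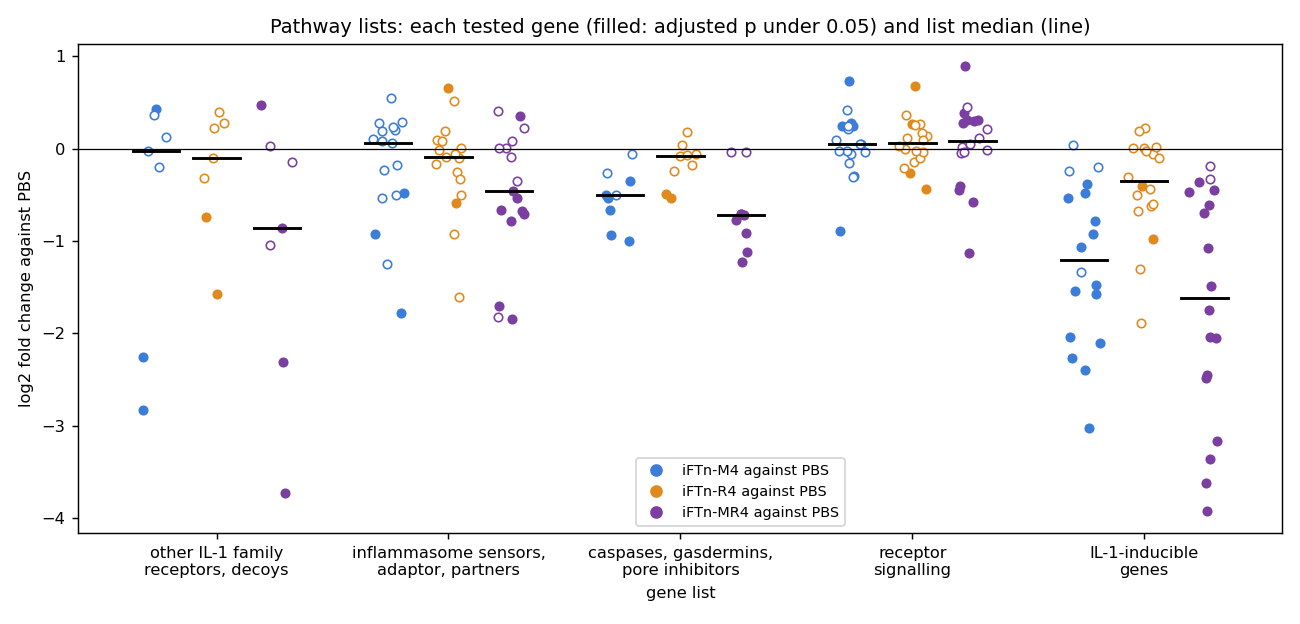
Log2 fold change against PBS (vertical axis) of each tested gene of 5 pathway lists, for iFTn-M4, iFTn-R4 and iFTn-MR4; filled points have an adjusted p under 0.05 and lines are list medians. The median of the interleukin 1 inducible genes lies at -1.21 in iFTn-M4 and -1.62 in iFTn-MR4 hearts, and that of the signalling genes at 0.05 to 0.08.

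Proteases other than caspases that can cut interleukin 1 family ligands, secreted ones and the cytosolic calpains, showed 3 falls in iFTn-M4 hearts, 2 rises and 1 fall in iFTn-R4 hearts, and 4 falls in iFTn-MR4 hearts among 7 tested (medians -0.30, -0.02 and -0.45). All tested genes passed at 41.2%, 29.4% and 50.9%, so these counts do not stand out from the background. Mmp9, a gelatinase of leukocytes, fell by log2 values of -2.44 ± 0.41 in iFTn-M4 and -2.93 ± 0.43 in iFTn-MR4 hearts, which without PBS replicate 1 were -1.65 and -2.14. Gzma, a granzyme of cytotoxic lymphocytes, rose by 1.76 ± 0.27 in iFTn-R4 hearts (edgeR adjusted p = 0.00224), at 6.38 ± 1.42 CPM beside 1.88 ± 0.425 CPM in PBS hearts. In iFTn-MR4 hearts Gzma fell (log2 -1.05, edgeR adjusted p = 0.0328), a call lost with the length offset and without either iFTn-MR4 library. Capn2, a calpain that acts inside the cell, fell in iFTn-MR4 hearts (log2 -0.45 ± 0.07) and in iFTn-M4 hearts (log2 -0.30). Its iFTn-M4 call was lost without iFTn-M4 replicate 2 or PBS replicate 2. In iFTn-R4 hearts 1 of 7 passed without PBS replicate 1.

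Of 8 tested type 2 genes that interleukin 33 can induce, 2 rose and 3 fell in iFTn-M4 hearts, 3 rose and 3 fell in iFTn-R4 hearts, and 2 rose and 3 fell in iFTn-MR4 hearts (medians 0.21, 0.35 and 0.30). All tested genes passed at 41.2%, 29.4% and 50.9%, with rises and falls in about equal number. Rora, a transcription factor of innate lymphoid cells that is also widely expressed, rose by log2 0.79 ± 0.09, 0.67 ± 0.09 and 0.85 ± 0.09 in iFTn-M4, iFTn-R4 and iFTn-MR4 hearts. Mrc1, the mannose receptor of macrophages, rose by 0.73 ± 0.12, 0.53 ± 0.12 and 0.71 ± 0.12, and its call in iFTn-R4 was lost with the length offset and without PBS replicate 2. Arg1, an arginase of alternatively activated macrophages, averaged 48.7 ± 37.6 CPM in iFTn-M4 hearts, 94.9 ± 41.5 CPM in iFTn-R4 hearts, 25.2 ± 13.3 CPM in iFTn-MR4 hearts and 412 ± 221 CPM in PBS hearts. It fell by log2 values of -3.09 ± 0.58 in iFTn-M4 and -4.03 ± 0.62 in iFTn-MR4 hearts. Without PBS replicate 1 and without libraries of the nanocage group these values lay between -4.24 and -2.40 and between -4.70 and -3.35. Arg1 fell in iFTn-R4 hearts too (log2 -2.12, edgeR adjusted p = 0.0194). That call was lost with the length offset and without iFTn-R4 replicate 2 or PBS replicate 1. Chil3, a chitinase-like protein of macrophages, fell by log2 values of -1.51 ± 0.39 and -1.59 ± 0.39 in iFTn-M4 and iFTn-MR4 hearts. The first call was lost without iFTn-M4 replicate 1, iFTn-M4 replicate 2 or PBS replicate 2 and the second without iFTn-MR4 replicate 1, and without iFTn-MR4 replicate 2 the second value was -2.36. Counts of calls dropped to 3 of 8 in iFTn-M4 hearts without either of its libraries, to 3 and 2 of 8 in iFTn-R4 hearts without iFTn-R4 replicate 2 and PBS replicate 1, and to 3 of 8 in iFTn-MR4 hearts without iFTn-MR4 replicate 1.

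Markers of cells that can express these genes did not all move in the same direction. The 12 neutrophil markers summed to 53.4 to 91.8 CPM in iFTn-M4 libraries, 134 to 167 CPM in iFTn-R4 libraries, 49.8 to 56.1 CPM in iFTn-MR4 libraries and 163 to 192 CPM in PBS libraries. Of 10 tested, 6 fell in iFTn-M4 hearts (median log2 fold change -1.26), 1 rose and 1 fell in iFTn-R4 hearts (0.13), and 7 fell in iFTn-MR4 hearts (-1.64). Of all tested genes 21.4%, 15.4% and 26.3% fell in these groups, and 19.8%, 13.9% and 24.6% rose. The counts in iFTn-R4 hearts are under those shares. In iFTn-R4 hearts Csf3r, which has the highest level of the list, fell (log2 -0.53 ± 0.18, edgeR adjusted p = 0.047), and the granule protein gene Ngp rose (edgeR adjusted p = 0.00556), at 1.22 ± 0.0512 CPM beside 0.0646 ± 0.00205 CPM in PBS hearts, a level under the floor of 3 counts. The Csf3r call there was lost with the length offset, without any 1 library of iFTn-MR4 or PBS and without iFTn-R4 replicate 2. The defining markers Ly6g, Camp and Ngp were at 0 in at least 1 library. Ngp entered the test through the iFTn-R4 libraries, in which it is highest, so its own call adds nothing to the counts of this list. DESeq2 gave no adjusted p for Ngp in iFTn-R4 against PBS. S100a9, an abundant calcium-binding protein of neutrophils, averaged 8.12 ± 6.12 CPM in iFTn-M4 hearts, 31.2 ± 7.62 CPM in iFTn-R4 hearts, 7.18 ± 1.71 CPM in iFTn-MR4 hearts and 30.2 ± 1.01 CPM in PBS hearts. Csf3r, the receptor for the neutrophil growth factor, averaged 31.6 ± 6.6 CPM in iFTn-M4 hearts, 51.7 ± 13 CPM in iFTn-R4 hearts, 24.7 ± 0.474 CPM in iFTn-MR4 hearts and 74.8 ± 10.9 CPM in PBS hearts. The 12 monocyte and inflammatory macrophage markers summed to 2532 to 2828 CPM in iFTn-M4 libraries, 2009 to 2029 CPM in iFTn-R4 libraries, 2154 to 2214 CPM in iFTn-MR4 libraries and 2213 to 3114 CPM in PBS libraries, with 0 of them at 0. That sum is led by Lyz2, and gene by gene 1 rose and 6 fell in iFTn-M4 hearts, 8 fell in iFTn-R4 hearts, and 1 rose and 8 fell in iFTn-MR4 hearts (medians -0.38, -0.50 and -0.87). These counts stand beside the same shares of all tested genes as above. Plac8, a gene of circulating monocytes, fell by log2 values of -2.42 ± 0.21, -0.61 ± 0.19 and -3.05 ± 0.22, and Fcgr1, an antibody receptor of monocytes and macrophages, by -1.03 ± 0.10, -0.80 ± 0.10 and -1.68 ± 0.10. The Plac8 call in iFTn-R4 was lost with the length offset (edgeR adjusted p = 0.3), without PBS replicate 2 (0.251), without iFTn-R4 replicate 1 (0.0949) and without either iFTn-MR4 library (0.0678 and 0.068). Plac8, Fcgr1 and Ngp were chosen after their values were seen and do not stand for their lists. In the monocyte and inflammatory macrophage list Lyz2 and C1qb have the highest means. Of the 10 cardiomyocyte markers, 3 rose and 2 fell in iFTn-M4 hearts, 1 rose and 7 fell in iFTn-R4 hearts, and 6 rose and 2 fell in iFTn-MR4 hearts, against PBS, and 7 rose in iFTn-MR4 against iFTn-R4 hearts. Their counts in iFTn-M4 hearts are near the shares of all tested genes given above. In iFTn-MR4 against iFTn-R4 hearts 12.6% of all tested genes rose. The 10 fibroblast markers summed to 15599 to 17938 CPM, 11807 to 15746 CPM and 13203 to 15049 CPM in iFTn-M4, iFTn-R4 and iFTn-MR4 libraries, and to 9177 to 9482 CPM in PBS libraries. The 8 resident macrophage markers summed to 532 to 686 CPM in nanocage libraries and 445 to 473 CPM in PBS libraries, and the 10 endothelial markers to 2094 to 2471 CPM and 1824 to 2050 CPM. The 8 mast cell markers lay at 49.9 to 72.7 CPM in nanocage libraries and 68.8 to 80.1 CPM in PBS libraries, the 12 lymphoid markers at 29.7 to 58.2 CPM and 36.2 to 37 CPM, and the 5 B cell markers with values at 4.46 to 7.72 CPM and 8.2 to 8.47 CPM. Ms4a2 of the mast cell list and Cd3e, Cd3d and Foxp3 of the lymphoid list were at 0 in at least 1 library. The part of cell make-up in the members' values was not tested.

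The genes whose pattern over the 8 libraries lay closest to each member were found by the root mean square difference of centred log2 CPM, among genes with a mean of at least 5 CPM. For Il1b they included Mthfd1l (0.158) and Apln (0.248). For Il1rn they were Spp1 (0.27), Mthfd2 (0.289) and Nlrc5 (0.366). For Nlrp3 they were Fgr (0.0663), Csf3r (0.109) and Glipr2 (0.115). Casp1 lay closest to Snx10 (0.0488), Gsdmd to Pik3r5 (0.0548) and Il1r1 to Egfr (0.0315). Il33 lay closest to Fam91a1 (0.0733), Il18 to Rabl2 (0.165), Il1rl1 to Fcrls (0.253) and Il1a to Padi4 (0.35). The libraries share their depth and group means, so these distances are descriptions.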

How the data were processed

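The 8 heart libraries were read as DNA nanoballs after oligo-dT selection, according to the labels. HISAT2 2.1.0, Bowtie2 2.2.5, RSEM 1.2.8 and the mouse build GRCm38.p6 are named in the submitters' processing notes. Per gene, the authors deposited expected counts, FPKM values and TPM values per gene, per the file headers, in 1 table for PBS (17051 genes) and 1 for the nanocages (17788 genes). Of 16695 genes in both, 16547 had values in all libraries, and 5.09% of these genes' expected counts were fractional by more than 1e-09. The members' counts were whole in all libraries. Whether counting used strand is not stated.

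Rounded expected counts entered edgeR 4.0.16 (R 4.3.3), with TMM scaling, filterByExpr (13953 genes kept) and 1 quasi-likelihood fit of all 8 libraries with a mean per group. The common dispersion was 0.00718, with 4 residual degrees of freedom. Tests were 2-sided, with Benjamini-Hochberg adjustment across the 13953 genes. A floor of 3 counts equals 0.188 to 0.227 CPM and covers counting error only. FPKM and counts gave the lengths for the offset. The replicate numbers of the labels, the samples in the fit, DESeq2 1.42.0, limma 3.58.1 on log2(TPM + 1), other scalings and single libraries left out were the alternatives. All 10 members are named. Of each pathway list up to 4 genes are named, by lowest adjusted p among those that passed in a comparison with at least 5 CPM, and of the neutrophil list the 2 genes with the highest mean. Members and lists were chosen with earlier results of these data known. A further result is not reported here.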

Additional observations from a re-analysis of the deposited data

How the results depend on the processing

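Of 1013 values of the 10 members over 17 alternatives, 863 kept direction and side of the threshold, 68 no longer passed, 39 newly passed and 43 changed sign. The count of members called in iFTn-R4 against PBS was 3, with 1 under total count scaling, under DESeq2 and in a fit of the groups compared alone, and 0 with the length offset. In iFTn-MR4 against iFTn-M4 it was 0, with 2 under DESeq2, 3 in a fit of the groups compared alone, and 1 with the replicate block, with or without the length offset. In iFTn-R4 against iFTn-M4 it was 2, with 1 in a fit of the groups compared alone. Leaving out single libraries gave 4 to 7 in iFTn-M4, 0 to 4 in iFTn-R4 and 5 to 8 in iFTn-MR4 against PBS, 0 to 3 in iFTn-MR4 against iFTn-M4, 2 to 7 in iFTn-MR4 against iFTn-R4 and 0 to 3 in iFTn-R4 against iFTn-M4. The cause of these shifts was not tested.

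The sign changes concern values near 0 or low counts. In iFTn-R4 against PBS, Il1rn was 0.18 under limma, 0.00 with the length offset and 0.01 with block and offset, and Il18 was 0.21, 0.17 and 0.20. In iFTn-MR4 against PBS, Il1r1 was -0.02 under total count scaling, 0.00 in a fit of the groups compared alone and -0.15 with the offset, with or without the block, and Il33 was 0.07 under limma and 0.10 with the offset, with or without the block. Il1a in iFTn-MR4 against iFTn-R4 was 0.03 with the offset, 0.00 with the block and 0.07 with both, and Gsdmd in iFTn-R4 against iFTn-M4 was 0.04 under limma. Without single libraries the range crossed 0 in iFTn-R4 against PBS for Il18 (-0.41 to 0.23), Il1rl1 (-1.39 to 0.39) and Il1rn (-0.41 to 0.30), in iFTn-MR4 against PBS for Il1r1 (-0.06 to 0.07) and Il33 (-0.17 to 0.04), and in iFTn-M4 against PBS for Il33 (-0.06 to 0.34). It did so in iFTn-MR4 against iFTn-M4 for Il1a (-0.92 to 0.12), Il1b (-0.69 to 0.43), Il1rl1 (-0.30 to 0.07) and Nlrp3 (-0.50 to 0.05), in iFTn-R4 against iFTn-M4 for Gsdmd (-0.19 to 0.09), Il1a (-1.37 to 0.16), Il1r1 (-0.09 to 0.13) and Il33 (-0.05 to 0.39), and in iFTn-MR4 against iFTn-R4 for Il1a (-0.57 to 0.89).

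Same-numbered libraries did not deviate together throughout (correlations -0.0143 to 0.153), so the replicate block was used as an alternative only. With it Il1a passed in iFTn-M4 against PBS (adjusted p = 0.0146), Il33 in iFTn-R4 against PBS (0.0464) and in iFTn-MR4 against iFTn-R4 (0.0231), Gsdmd in iFTn-MR4 against iFTn-M4 (0.031) and Il1b in iFTn-R4 against iFTn-M4 (0.0239). With block and offset together Casp1 in iFTn-M4 against PBS did not (log2 -0.40, 0.0535). Counts over all tested genes moved most in iFTn-MR4 against iFTn-M4, with 51 genes called, 353 under DESeq2, 714 in a fit of the groups compared alone, 18 under limma, 271 with the block and 2 to 603 without single libraries. In iFTn-R4 against PBS 4096 genes were called, and 1943 with the length offset. Il1a was under the low-count filter when a pair of nanocages was fitted alone, and DESeq2 gave no adjusted p for Il1a in 2 comparisons and for Il18 and Il1rl1 in iFTn-MR4 against iFTn-M4. With 2 libraries a group and 4 residual degrees of freedom, the low genes Il18, Il1rl1 and Il1a had SEs from 0.30 for Il18 to 0.88 for Il1a. Small changes of these genes may be missed, and the smallest detectable change was not determined.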
